A study of Mus musculus with 12 samples.

Results

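The nuclear genes of oxidative phosphorylation were taken as the rows whose symbols begin with Ndufa, Ndufb, Ndufc, Ndufs or Ndufv and a digit, with Uqcr, with Cox4 to Cox8 or with Atp5, together with Sdha, Sdhb, Sdhc and Sdhd. Pseudogene names and symbols beginning with Ndufaf or Sdhaf were left out. The rule found 84 of the 44792 genes. By symbol, 35 were placed in complex I, 4 in complex II, 8 in complex III, 20 in complex IV and 17 in ATP synthase. Ndufa4 and Ndufa4l2 were counted in complex IV, where the protein sits. RNA was sequenced from renal tubular epithelial cells (primary cells) taken from the cortex of C57BL/6 kidneys, with 12 libraries and 3 mice per group. Wild type mice were Setd2fl/fl without Cre, and Setd2 knockout mice were Setd2fl/fl with Ksp1.3/cre. MYC mice were MYCfl/fl with Ksp1.3/cre, and MYC Setd2 knockout mice carried Ksp1.3/cre, MYCfl/fl and Setd2fl/fl. The floxed Setd2 allele was thus missing only from the MYC label, and Cre only from the wild type label. The sample titles mark the MYC label as MYC-OE, for overexpression, and do not say how recombination of the MYC allele brings it about. No age is given in the labels. The Ksp-cadherin promoter drives Cre in tubular epithelium, chiefly of the thick ascending limb, distal tubule and collecting duct, so other cells of a cortex preparation can keep their alleles unrecombined. Expression was tested in 82 of the 84 members. Cox7b2, with 1 count in all libraries together, and Cox8c, with 0 counts, stayed out of the test.

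Oxidative phosphorylation passes electrons from NADH through complex I, or from succinate through complex II, to ubiquinone, then through complex III and cytochrome c to complex IV, where oxygen is reduced. Complexes I, III and IV pump protons across the inner mitochondrial membrane, and ATP synthase uses the return flow to make ATP. Most subunits are encoded in the nucleus and a few of the central ones in the mitochondrial genome. Proximal tubule cells, which make up most of the kidney cortex, are rich in mitochondria and depend on this pathway to power the reabsorption of salt, glucose and phosphate. MYC is a transcription factor that raises the transcription of many mitochondrial genes in other settings, and Setd2 places a trimethyl mark on histone H3 along transcribed genes.

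Markers of the proximal tubule were abundant in all wild type libraries (16 genes summing to 42205 CPM or more). Total counts ranged from 8889185 to 44227191 per library. Setd2 itself did not separate the labels, with 70.9 to 86.4 normalised CPM in wild type and 58.8 to 78.9 in Setd2 knockout (log2 fold change -0.24 ± 0.19, edgeR quasi-likelihood adjusted p = 1). Normalised CPM are CPM, counts relative to the library total, after scaling by trimmed means of M values (TMM), and errors of log2 fold changes are standard errors. The gene-level count does not show the loss of single exons, and groups are named by their labels throughout. The gene Myc did not separate the labels either, at 3.11 to 3.44 normalised CPM in wild type and 3.22 to 4.88 in MYC (log2 fold change 0.32 ± 0.52, edgeR adjusted p = 0.669). MYC Setd2 knockout 1 to 3 had 6.49, 2.27 and 14.0. The libraries also fell into 3 sets by the CPM of mitochondrial ribosomal RNA, called counting sets here. Set 1, above 10000 CPM, held wild type 1 to 3 and Setd2 knockout 1 and 2. Set 3, below 100 CPM, held 4 libraries, which were MYC 2, MYC 3 and the third of each Setd2 knockout group. The remaining 3 libraries, MYC 1 and the first and second of MYC Setd2 knockout, made up set 2. No set held both wild type and MYC. Setd2 knockout 3 and MYC Setd2 knockout 1 and 3 had over 100 CPM of Xist and no Ddx3y counts, unlike the other 9 libraries, so sex varied within these groups. Wild type 3 and Setd2 knockout 2 were closer to each other (median chi-square over genes 2.59) than wild type 1 and 2 were (4.14), although they carry different labels. The closest pair of all was MYC 2 and MYC 3 (1.97), which lay at 41.4 and 47.9 from MYC 1.

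In wild type the members spanned a wide range of levels. Per kilobase of transcript and on total counts, the highest were Cox4i1, a regulatory subunit of complex IV, at 982 ± 217 CPM per kb (SD, n = 3), and Cox6a1 at 969 ± 265. Next were the ATP synthase subunit alpha Atp5a1 at 849 ± 103, the ring subunit Atp5g3 at 810 ± 241 and Cox8a at 766 ± 209. These 5 did not differ from their neighbours in the order by more than their SDs. The highest complex I member was Ndufb9 at 448 ± 65.8 CPM per kb, and the highest of complex III was Uqcrq at 428 ± 115. Complex II members lay between 234 ± 34.1 for the membrane anchor Sdhd and 347 ± 32.8 for the iron-sulphur subunit Sdhb. The isoforms known from other tissues were low. Cox6a2, Cox7a1 and Cox8b, the heart and skeletal muscle isoforms, stood at 3.83 ± 1.44, 33.6 ± 7.37 and 0.123 ± 0.125 CPM per kb. Cox6b2, known from testis, stood at 8.49 ± 1.68, the hypoxia- and lung-associated Cox4i2 at 0.522 ± 0.160, and Ndufa4l2, a hypoxia-induced relative of Ndufa4, at 2.46 ± 0.737. Among the 3 genes for the same mature ring subunit c, Atp5g3 was followed by Atp5g1 at 20.8 ± 11.9 and Atp5g2 at 0.578 ± 0.0595. Ndufs7, a core subunit of complex I, had 0 counts in all 3 wild type libraries, and Cox7c and Atp5l, which encode constant parts of complex IV and ATP synthase, stood at only 3.68 ± 0.684 and 1.32 ± 0.338 CPM per kb.

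Summed over all members, the share of the nuclear RNA overlapped between the groups. In CPM of nuclear counts, they took 28219, 23601 and 22269 in wild type 1 to 3, 25786, 22122 and 28061 in Setd2 knockout 1 to 3, 25853, 22639 and 20964 in MYC 1 to 3, and 25924, 26409 and 17893 in MYC Setd2 knockout 1 to 3. All 4 groups overlapped, and MYC Setd2 knockout 3 was the lowest library. The group means were 24696 ± 3123 in wild type, 25323 ± 2996 in Setd2 knockout, 23152 ± 2485 in MYC and 23409 ± 4783 in MYC Setd2 knockout (SD, n = 3). The 13 mitochondrially encoded subunits varied more. They summed to 220890 to 250959 CPM of total counts in wild type and to 70887 to 84201 in MYC, without overlap. The sums rest almost wholly on ND1, ND2, ND4, ND5, CYTB and COX1. COX1 had 46190 to 57040 CPM in wild type and COX2 only 88.6 to 96.0. On total counts COX2, at 87.3 to 99.0 in MYC, overlapped between wild type and MYC, as did COX3, ND3, ND4L, ATP6 and ATP8. In Setd2 knockout the 13 subunits summed to 201227, 204165 and 126683, and in MYC Setd2 knockout to 227439, 240268 and 67910. In both of these groups the lowest value was in the set 3 library. Within MYC it was in MYC 1, of set 2, at 70887, with 84201 and 72918 in MYC 2 and 3.

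**Figure D1:**
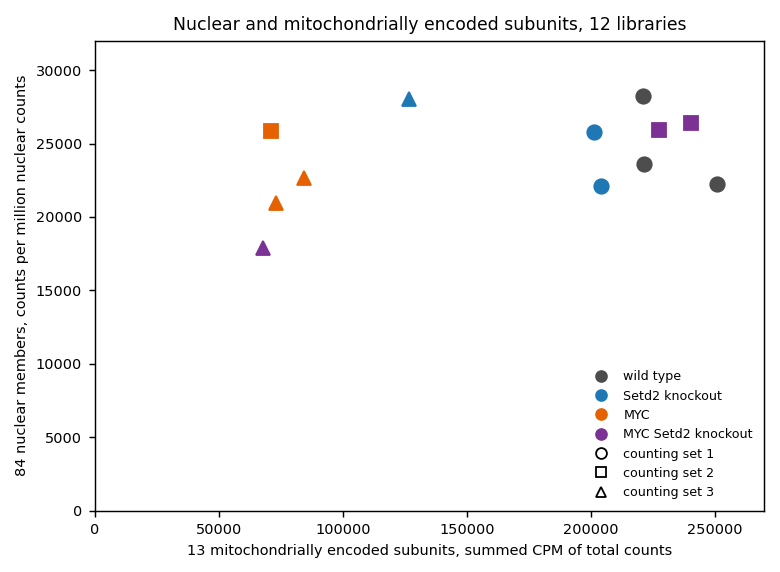
Counts of the 84 nuclear members as CPM of nuclear counts (vertical axis) against the summed CPM of the 13 mitochondrially encoded subunits (horizontal axis), with 1 point per library, colours for groups and shapes for counting sets. Nuclear members lie between 17893 and 28219 in all groups, while the MYC libraries lie at 70887 to 84201 on the horizontal axis and wild type at 220890 to 250959.

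Setd2 knockout was set against wild type to ask what the Setd2 label changes without the MYC construct. No member was called at an adjusted p under 0.05, as was true of all 17019 genes tested (0%). At an unadjusted p under 0.05 there was 1 member, Atp5l, beside 2.91% of all genes. DESeq2 called the same gene higher (adjusted p = 0.0201), beside 0.323% of all genes called higher and 0.0118% called lower by that tool. The median log2 fold change of the 82 tested members was -0.11, beside -0.01 over all genes, with 59 members below 0 (50.8% of all genes were). By complex the median was -0.13 for complex I, -0.22 for complex II, -0.04 for complex III, -0.07 for complex IV and -0.09 for ATP synthase. Setd2 knockout 3 stood apart from the other 2, with 13 members more than 1 higher than in them on the log2 scale and 3 more than 1 lower, beside 18.9% and 9.86% of all genes. Atp5l, subunit g of ATP synthase, stood at 1.02, 0.600 and 0.940 normalised CPM in wild type and at 1.09, 0.842 and 54.1 in Setd2 knockout. Only Setd2 knockout 3 was high. Within set 1, the 2 remaining Setd2 knockout libraries differed from wild type by a median of -0.07 over the members, with 0 past a log2 difference of 1 in either direction. Ndufv3, an accessory subunit of complex I, was the only member whose groups did not overlap, beside 3.55% of all genes in the same, lower, direction and 3.2% in the higher one.

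MYC was set against wild type to ask what the MYC construct changes. Most members had lower values relative to the median gene, with medians of -0.68 for complex I, -0.75 for complex II, -0.33 for complex III, -0.66 for complex IV and -0.51 for ATP synthase. On the TMM scale, 67 of 82 members lay below 0 with a median of -0.61, beside -0.00 over all genes, of which 50.2% lay below 0. The calls were few. Cox7a2l rose, and Ndufs6 and Ndufb9 fell, beside 5.62% of all genes called higher and 2.36% called lower (7.99% in either direction). Each of these 3 calls was kept in 1 of the 6 fits that left out a library. That fit, without MYC 1, called 3 members higher and 27 lower, beside 14.8% and 10% of all genes. The other 5 called 0 members and 1 to 3 of all genes. DESeq2 called 3 members higher and 17 lower, beside 16.9% and 9.47% of all genes, and 32 members had an unadjusted p under 0.05 in edgeR, beside 36% of all genes. A further count is of members whose MYC libraries all lay outside the wild type range. There were 36 such members lower and 10 higher, beside 25.1% and 25.5% of all genes. These values depend on the scaling. On total counts alone the median of all genes moved by 0.76, the member median was 0.12, and 7 members were called higher and 1 lower, beside 28.3% and 1.36% of all genes. Without the libraries of set 3 the MYC group was MYC 1 alone, assumed to vary like the other groups, and 7 members were called higher and 4 lower, beside 10.1% and 6.2%. Those counts describe that library and say nothing of the spread within MYC. With a term for the counting sets the counts were 0 and 1, beside 0.922% and 1.47%. That term links set 1 to the other sets only through Setd2 knockout 3, so this adjustment rests on 1 library. With a replicate block the counts were 2 and 12, beside 8.61% and 4.78%. In bulk RNA, fewer cells of a type and less RNA per cell cannot be told apart.

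**Figure D2:**
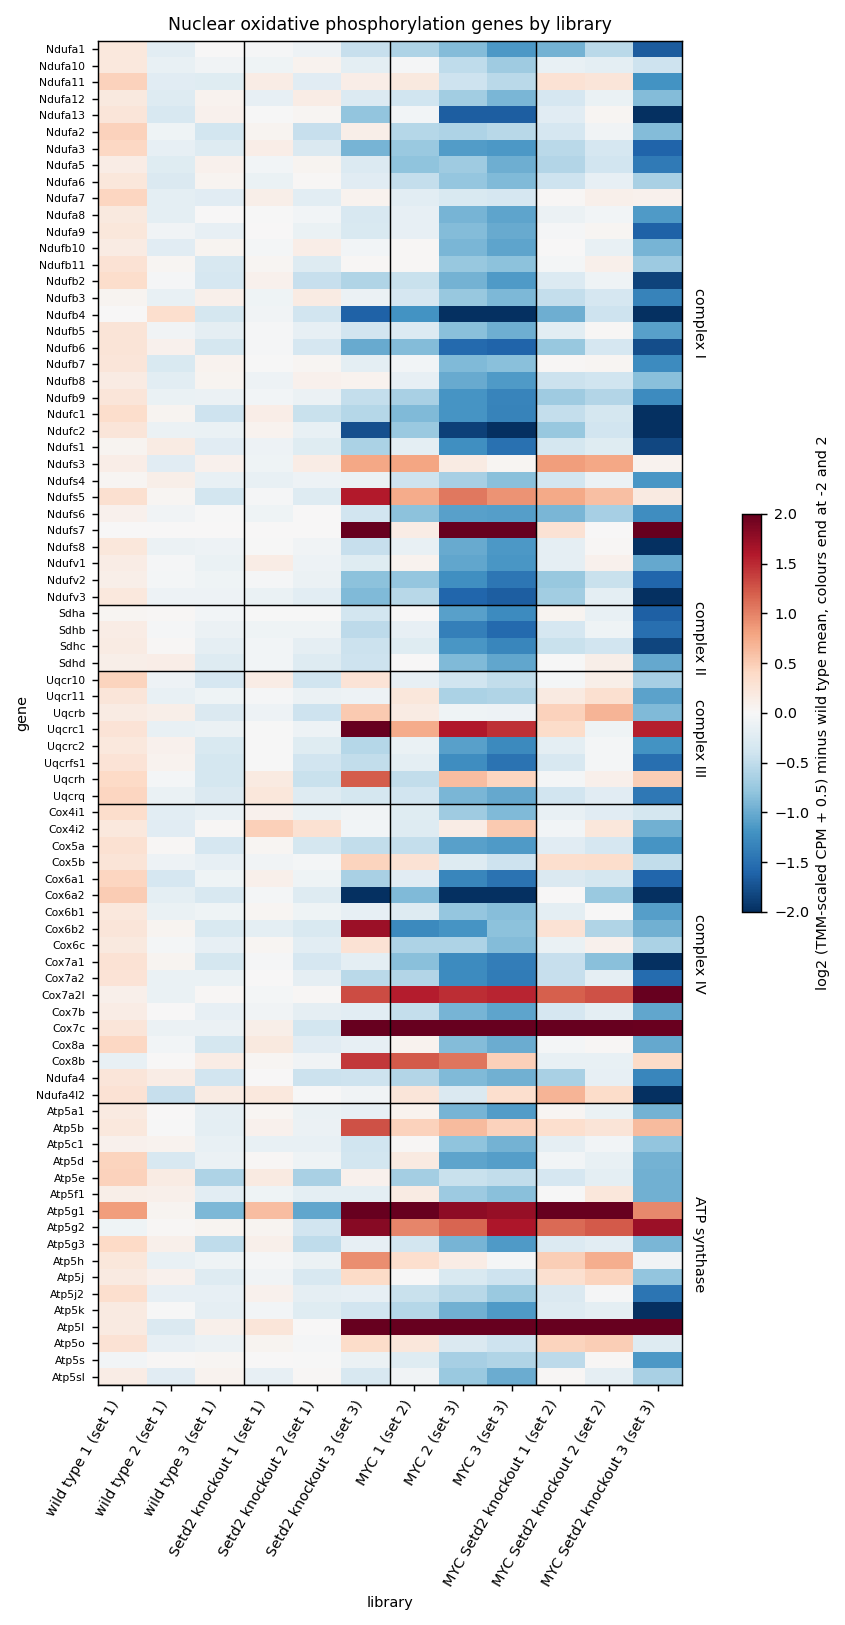
Tested members (rows, by complex, with 1 of the 82 left out) in each of the 12 libraries (columns, with counting set), as log2 of TMM-scaled CPM plus 0.5 minus the mean of the 3 wild type libraries. Most rows of every complex are below the wild type mean (blue) in MYC 2 and 3 and MYC Setd2 knockout 3. Cox7a2l, Cox7c, Atp5g1, Atp5g2 and Atp5l are red in all MYC and MYC Setd2 knockout libraries and in Setd2 knockout 3.

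The promoters of Ndufs6 and Cox7a2l, which passed the test, and of the ring subunit gene Atp5g1, picked after its values were seen because its window holds the E-box, run from 250 bases before to 50 after the start (RefSeq, GRCm38.p6; all 3 on the minus strand and printed 5′ to 3′ on the gene's strand). Capitals mark matches to the motifs counted below. No promoter of Ndufb9 was printed.
Ndufs6 (chr13:73328433-73328732): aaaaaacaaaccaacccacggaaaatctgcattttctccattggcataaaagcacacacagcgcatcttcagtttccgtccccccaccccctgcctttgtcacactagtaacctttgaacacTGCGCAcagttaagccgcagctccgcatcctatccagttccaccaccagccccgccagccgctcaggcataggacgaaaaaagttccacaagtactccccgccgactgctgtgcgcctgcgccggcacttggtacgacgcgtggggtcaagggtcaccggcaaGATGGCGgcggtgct
Cox7a2l (chr17:83514284-83514583): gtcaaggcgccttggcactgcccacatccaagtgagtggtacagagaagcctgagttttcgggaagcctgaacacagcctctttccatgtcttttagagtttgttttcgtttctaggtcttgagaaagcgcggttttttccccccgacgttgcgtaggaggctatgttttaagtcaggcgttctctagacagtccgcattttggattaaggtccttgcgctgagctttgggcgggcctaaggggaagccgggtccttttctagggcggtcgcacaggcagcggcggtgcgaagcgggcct
Atp5g1 (chr11:96075582-96075881): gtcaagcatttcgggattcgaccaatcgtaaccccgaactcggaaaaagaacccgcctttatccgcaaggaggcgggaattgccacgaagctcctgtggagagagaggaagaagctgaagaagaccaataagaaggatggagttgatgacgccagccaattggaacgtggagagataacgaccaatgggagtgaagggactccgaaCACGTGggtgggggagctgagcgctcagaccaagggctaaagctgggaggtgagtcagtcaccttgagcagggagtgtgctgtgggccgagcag
The motifs searched, on both strands, were CACGTG (the E-box of MYC and MAX), CCGGAAG (the core bound by ETS factors such as GABPA), TGCGCA (NRF1), AAGGTCA (estrogen-related receptors) and GATGGCG (YY1). Matches of different motifs were allowed to overlap. Atp5g1 held the E-box at base 207 of the window, and Ndufs6 held the NRF1 motif at base 123 and the YY1 motif at base 286. The Cox7a2l window held none of these letters. Of the 84 members, 69 had a promoter window in the table, 66 found by symbol and 3 by gene ID. The E-box was in 7 of the 69 (10.1%), beside 8.09% of 27025 genes, the ETS core in 16 (23.2%, beside 9.93%), the NRF1 motif in 18 (26.1%, beside 8.79%), the estrogen-related receptor motif in 8 (11.6%, beside 5.38%) and the YY1 motif in 11 (15.9%, beside 4.04%). Of the members with the E-box, Atp5g1 and Atp5l had a higher mean of normalised CPM in MYC than in wild type. Atp5f1, Atp5g3, Atp5sl, Ndufa7 and Ndufv1 had a lower mean. A match is a run of letters and not a bound site.

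Complex I held both members that fell. Of its 35 members, 32 lay below 0 in MYC against wild type (median -0.68). Of the 35, 2 were called lower and 20 had all MYC libraries below wild type, beside 2.36% and 25.1% of all genes. Ndufs6, a zinc-binding accessory subunit at the NADH end of the complex (chromosome 13, 73319876 to 73328482, minus strand in the deposited table), had 148, 133 and 140 normalised CPM in wild type, 132, 142 and 107 in Setd2 knockout, 78.9, 65.5 and 64.8 in MYC, and 73.9, 88.8 and 59.1 in MYC Setd2 knockout. Every library with the MYC label lay below every library without it. Ndufs6 fell by 1.01 ± 0.19 on the log2 scale in MYC against wild type (edgeR adjusted p = 0.0407). Ndufb9, an accessory subunit of the membrane arm (chromosome 15, 58933810 to 58939489, plus strand), had 431, 333 and 338 normalised CPM in wild type and 233, 162 and 145 in MYC, without overlap. It fell by 1.03 ± 0.26 (edgeR adjusted p = 0.0459). Both calls were lost on total counts, where the log2 fold changes were -0.26 and -0.30. Against wild type, MYC 1 alone differed by -0.79 for Ndufs6 and -0.62 for Ndufb9 in the fit without the libraries of set 3. Each gene has 1 near-identical copy among annotated transcripts, a pseudogene for Ndufs6, at 95% identity or more over at least 150 bases, so the counting could split their reads.

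Other accessory subunits of complex I were lower without passing the test. Ndufb4 had 34.0, 42.7 and 26.4 normalised CPM in wild type and 14.5, 5.67 and 5.68 in MYC (log2 fold change -1.99 ± 0.57, edgeR adjusted p = 0.0548). Ndufc2 had 234, 182 and 179 in wild type and 118, 53.9 and 48.3 in MYC (-1.44 ± 0.60, adjusted p = 0.119). Ndufa1, which is needed to build the membrane arm, had 160, 120 and 140 in wild type and 91.0, 76.4 and 62.3 in MYC (-0.87 ± 0.28, adjusted p = 0.0706). In all 3 the MYC libraries lay below the wild type libraries, and MYC 1, of set 2, was the highest of them. Among core subunits, some of which carry the flavin or iron-sulphur clusters, the values were -1.13 ± 0.33 for Ndufv2 (adjusted p = 0.0558), -0.87 ± 0.44 for Ndufs1, -0.70 ± 0.47 for Ndufs8, -0.60 ± 0.37 for Ndufv1 and 0.36 ± 0.30 for Ndufs3. Ndufs1 shows the difference between MYC libraries, with 395 normalised CPM in MYC 1 against 194 and 160 in MYC 2 and 3 and 389 to 505 in wild type.

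Ndufs7, which carries the last iron-sulphur cluster before ubiquinone, followed another pattern. Its counts were 0 in all 5 libraries of set 1, 1, 1 and 0 in the libraries of set 2, and 1637, 1388, 1437 and 1097 in the 4 libraries of set 3, which carry 3 different labels. Against a floor of 3 counts over the wild type libraries together it was at least 1882-fold higher in MYC on pooled total counts, a value that rests on MYC 2 and 3. The row overlaps another row, n-Tn7, on the same strand.

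Complex II, which oxidises succinate, had all 4 members below 0 (median -0.75) and none called. Its flavoprotein Sdha had 1093, 1075 and 1017 normalised CPM in wild type, 1064, 497 and 441 in MYC, and 1100, 957 and 343 in MYC Setd2 knockout. MYC 1 and MYC Setd2 knockout 1 and 2 were within or close to the wild type range, and the 3 lowest libraries were all of set 3. The log2 fold change in MYC against wild type was -0.67 ± 0.47 (edgeR adjusted p = 0.311). Sdhb gave -0.90 ± 0.43, Sdhc -0.83 ± 0.40 and Sdhd -0.57 ± 0.35, with adjusted p of 0.156 or more. In Setd2 knockout 3, the set 3 library without the MYC label, Sdha stood at 819.

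Complex III had a median of -0.33, with 6 of 8 members below 0 and none called. The Rieske iron-sulphur protein Uqcrfs1 had 571, 496 and 368 normalised CPM in wild type and 412, 199 and 170 in MYC (-0.88 ± 0.43, edgeR adjusted p = 0.166), with MYC 1 inside the wild type range. The core protein Uqcrc2 gave -0.75 ± 0.39. Its partner Uqcrc1 went the other way, with 99.1, 74.1 and 75.4 in wild type and 138, 252 and 228 in MYC (1.31 ± 0.63, adjusted p = 0.155). Uqcrc1 was also at 371 in Setd2 knockout 3 and 242 in MYC Setd2 knockout 3, so its 4 highest libraries were those of set 3. The row overlaps a LOC gene on the other strand. The remaining members Uqcr10, Uqcr11, Uqcrb, Uqcrh and Uqcrq lay between -0.79 and 0.23.

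Complex IV held the member that rose. Cox7a2l, which can join complexes III and IV into supercomplexes and of which C57BL/6 mice are known to carry a shortened form (chromosome 17, 83501917 to 83514333, minus strand), had 64.3, 54.3 and 60.9 normalised CPM in wild type, 58.2, 60.8 and 148 in Setd2 knockout, 178, 166 and 173 in MYC, and 138, 145 and 305 in MYC Setd2 knockout. All 6 libraries with the MYC label, and Setd2 knockout 3, were above the remaining 5. Cox7a2l rose by 1.53 ± 0.40 on the log2 scale in MYC against wild type (edgeR adjusted p = 0.0479). It was called higher on total counts as well (2.29). In the fit without the libraries of set 3, MYC 1 alone differed from wild type by 1.61. With a term for the counting sets the value was 0.42 (edgeR adjusted p = 0.650). That value rests on Setd2 knockout 3, the only library that links set 1 to the other sets within a group. Cox7a2l has 1 pseudogene copy at the limits given above. Cox7c, a small constant subunit, had 2.54, 1.86 and 1.85 in wild type, 14.7, 12.6 and 10.8 in MYC, 18, 16.1 and 9.54 in MYC Setd2 knockout, and 13.1 in Setd2 knockout 3 (2.61 ± 0.71 in MYC against wild type, adjusted p = 0.0507).

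Most other complex IV members had lower values. Of the 18 tested, 13 lay below 0 (median -0.66) and 10 had all MYC libraries below wild type, beside 25.1% of all genes. Cox5a, a matrix-facing subunit, had 441, 364 and 283 normalised CPM in wild type and 258, 168 and 162 in MYC (-0.89 ± 0.32, edgeR adjusted p = 0.0872), while Cox5b had 316, 248 and 237 in wild type and 322, 221 and 199 in MYC (-0.11 ± 0.30). Among isoform pairs, Cox4i1 gave -0.61 ± 0.28 and Cox4i2 0.32 ± 0.87 at levels under 1 normalised CPM. Cox6a1 gave -0.93 ± 0.45 and its muscle isoform Cox6a2 -2.49 ± 1.46, with 4.57, 2.62 and 2.36 normalised CPM in wild type and 1.42, 0.132 and 0.157 in MYC. Cox7a2 gave -1.05 ± 0.36 and the muscle isoform Cox7a1 -1.22 ± 0.55. Cox8a gave -0.55 ± 0.38 and the muscle isoform Cox8b 3.15 ± 1.42, the latter at levels under 1 normalised CPM in every library. Ndufa4 gave -0.82 ± 0.32 and Ndufa4l2 0.10 ± 0.70. None of these isoforms was called.

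ATP synthase had no called member. Of 17 members, 12 lay below 0 (median -0.51), and 4 had all MYC libraries above wild type, beside 25.5% of all genes. Among the catalytic head, Atp5a1 had 2916, 2616 and 2273 normalised CPM in wild type and 2726, 1364 and 1198 in MYC (-0.56 ± 0.45), and the catalytic subunit beta Atp5b had 1343, 1154 and 1009 in wild type and 1594, 1801 and 1597 in MYC (0.51 ± 0.41, edgeR adjusted p = 0.376). The pair forms 1 hexamer in the protein, and its values lay on opposite sides of 0, with neither called. Atp5b was highest in Setd2 knockout 3, at 2800, and its row holds the microRNA Mir677 on the same strand. Atp5c1, Atp5d and Atp5e, the stalk subunits, gave -0.51 ± 0.32, -0.56 ± 0.40 and -0.60 ± 0.32. Among the genes for subunit c, Atp5g3 had 967, 786 and 516 in wild type and 567, 385 and 332 in MYC (-0.82 ± 0.34, adjusted p = 0.122). Atp5g1 had 34.0, 19.6 and 9.82 in wild type, 29.2, 8.91 and 107 in Setd2 knockout, 119, 65.8 and 64.3 in MYC, and 148, 155 and 37.0 in MYC Setd2 knockout (1.98 ± 0.85 in MYC against wild type, adjusted p = 0.126). Its MYC libraries did not overlap wild type, and it was highest in the set 2 libraries. Atp5l had 0.600 to 1.02 in wild type, 22, 31.5 and 26.2 in MYC and 24.2, 29.1 and 35.9 in MYC Setd2 knockout (4.95 ± 1.39, adjusted p = 0.0529). It has 9 near-identical copies, of which 8 are pseudogenes, so the assignment of its reads is uncertain.

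**Figure D3:**
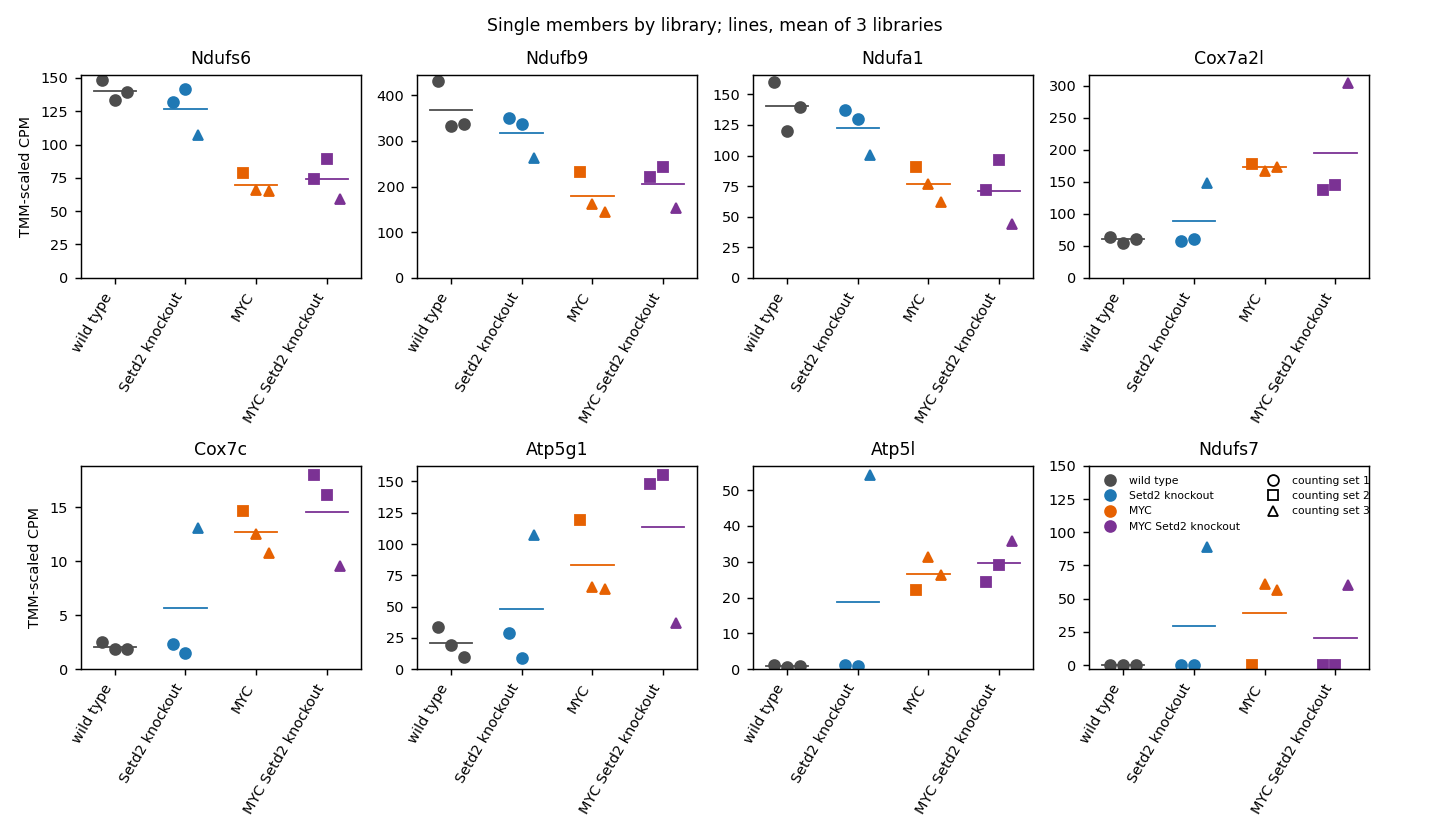
TMM-scaled CPM (vertical axes, starting at 0 or just below) of 8 members in each library by group, with shapes for counting sets and lines at the mean of 3 libraries. Ndufs6, Ndufb9 and Ndufa1 are lower in all MYC libraries than in wild type, Cox7a2l, Cox7c, Atp5g1 and Atp5l are higher, and Ndufs7 is above 50 only in the 4 libraries of set 3.

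Near-identical copies were found for 28 of the 84 members, and 22 members overlapped another row. Of the 10 members whose MYC libraries all lay above wild type, Atp5g1, Atp5l, Cox7a2l, Cox7c and Ndufs5 had a copy, Atp5b, Ndufs7 and Uqcrc1 overlapped another row, and Atp5g2 and Cox8b had neither. The median log2 fold change in MYC against wild type was -0.50 for members with a copy and -0.64 for those without. The part of copies and overlaps in these values was not tested.

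The counting sets bear on the comparison, because 2 of the 3 MYC libraries were of set 3 and all wild type libraries of set 1. Within MYC, the set 3 libraries minus MYC 1 gave a median of -0.60 on the log2 scale over the members, with 72 of 82 below 0. Within MYC Setd2 knockout the set 3 library minus the other 2 gave -0.93, with 73 below 0. Within Setd2 knockout the same difference gave -0.18, with 54 below 0 and 28 above. The only contrast of labels at a matched set with and without MYC was within set 3. There MYC 2 and 3 differed from Setd2 knockout 3 by a median of -0.67, with 78 of 82 members lower, beside a median of -0.01 over all genes. MYC Setd2 knockout 3 differed from Setd2 knockout 3 by -0.91, with 80 of 82 lower. Both rest on 1 library without the MYC label, which has over 100 CPM of Xist, as MYC Setd2 knockout 3 has and MYC 2 and 3 have not, and were not tested. In these 2 contrasts the log2 difference was -0.71 and -0.85 for Ndufs6, -0.78 and -0.78 for Ndufb9, and 0.20 and 1.05 for Cox7a2l.

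**Figure D4:**
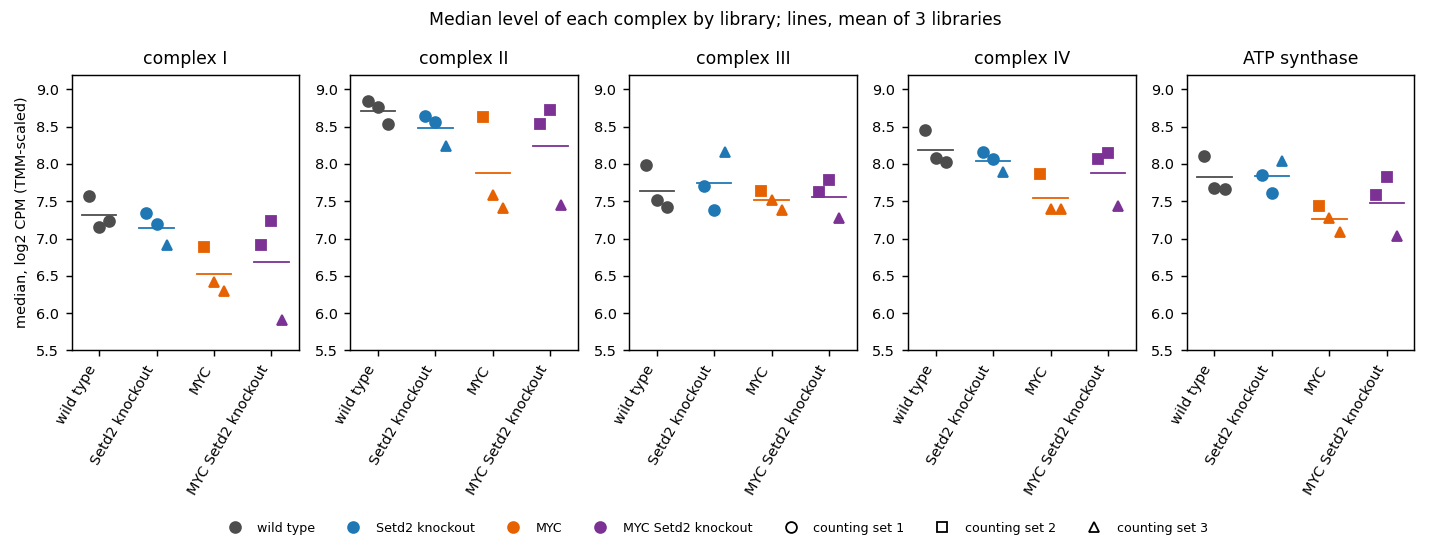
Median log2 CPM (TMM-scaled) over the members of each complex in each library, by group, with shapes for counting sets and lines at the mean of 3 libraries. In complexes I, II and IV and in ATP synthase the set 3 libraries with the MYC label are lowest. In complex II the set 2 libraries stay near the wild type level.

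MYC Setd2 knockout was set against MYC to ask what loss of Setd2 does beside the construct. No member was called, none had an unadjusted p under 0.05 (12.9% of all genes had) and DESeq2 called none, beside 0.176% of all genes called in either direction by edgeR and 1.87% called higher and 2.62% lower by DESeq2. The member median was 0.24 (10 of 82 below 0, and 46% of all genes), beside 0.05 over all genes, and -0.18 on total counts. The smallest adjusted p was 0.439, for Cox6c. The groups hold different sets, with 2 of 3 libraries of set 2 in MYC Setd2 knockout and 1 of 3 in MYC. Within set 2 the median difference was 0.10 and within set 3 it was -0.19. Cox8b, at levels under 1 normalised CPM, was the only member with no overlap in the lower direction, and Ndufa7 the only one in the higher direction (111 to 118 normalised CPM against 87.3 to 94.7), beside 6.66% of all genes lower and 5.89% higher. The Ndufa7 row overlaps 7 other rows, of which LOC102633036, Kank3 and Cd320 are on the same strand.

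MYC Setd2 knockout was also set against Setd2 knockout, which asks what the construct changes where both groups carry floxed Setd2 and Cre. No member was called, as was true of all genes (0%), while 6 members had an unadjusted p under 0.05 (9.54% of all genes had) and DESeq2 called 1, beside 0.4% of all genes called higher and 0.611% lower by that tool. The member median was -0.28, beside 0.01 over all genes, with 67 of 82 below 0 (49.1% of all genes) and medians of -0.32 for complex I, -0.30 for complex II, -0.21 for complex III, -0.28 for complex IV and -0.10 for ATP synthase. Complex I held 6 of the 8 members whose groups did not overlap in the lower direction, beside 4.4% of all genes, and these were Ndufs6, Ndufa1, Ndufa5, Ndufb3, Ndufb9 and Ndufb8. The others were Cox4i1 and Cox7a1. No member lay wholly above, beside 5.56% of all genes. Ndufs6 was the member DESeq2 called lower (adjusted p = 0.00743). Its edgeR log2 fold change was -0.78 ± 0.19 (adjusted p = 0.503). Cox7a2l gave 1.14 ± 0.40 (adjusted p = 0.505), with groups that overlapped because Setd2 knockout 3, at 148 normalised CPM, lay above MYC Setd2 knockout 1 and 2, at 138 and 145. Without the libraries of set 3, 7 members were called higher (Atp5g1, Atp5g2, Atp5l, Cox7a2l, Cox7c, Ndufs3 and Uqcrb) and Ndufs6 lower, beside 4.96% and 2.45% of all genes. Leaving out Setd2 knockout 3 alone gave 4 members higher, Atp5g2, Atp5l, Cox7a2l and Cox7c, and 0 lower, beside 1.58% and 0.73% of all genes. With the term for the sets, which rests on Setd2 knockout 3, 10 members were called lower and 0 higher, beside 5.75% and 3.1% of all genes. The 10 included Ndufs6, Ndufs1, Sdha, Sdhb and Sdhc, and the member median was -0.80.

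**Figure D5:**
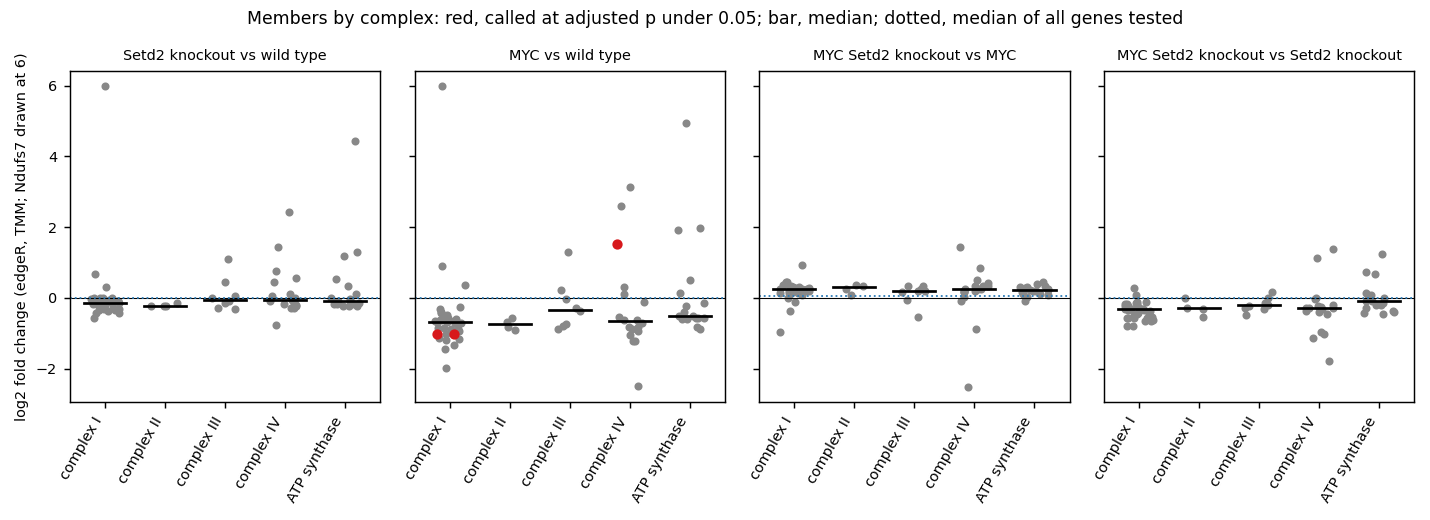
Log2 fold changes of the 82 tested members by complex (points) in 4 comparisons, with bars at the median of each complex, a dotted line at the median of all genes tested and red points for called members; Ndufs7 is drawn at 6 in the comparisons with wild type. Called members appear only in MYC vs wild type, where the complex medians lie between -0.75 and -0.33.

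The interaction asks whether the difference made by the Setd2 label depends on the MYC label. No member was called, beside 0.0118% of all genes, 2 members had an unadjusted p under 0.05 (Atp5l and Cox8b, smallest adjusted p 0.484) where 10.2% of all genes had, and DESeq2 called no member, beside 0.306% of all genes higher and 1.27% lower. The member median was 0.33 beside 0.05 over all genes, and -0.28 on total counts. The comparisons of Setd2 knockout and of MYC share the wild type libraries, so their member values are not independent.

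Related genes are given for the same comparison, MYC against wild type, where 5.62% of all genes were called higher and 2.36% lower. Of the 40 assembly factors tested, 35 lay below 0 (median -0.43) and 1 was called, Ndufaf4, a factor of early complex I assembly, which had 50.7, 56.9 and 55.0 CPM of total counts in wild type and 46.7, 51.0 and 42.9 in MYC and fell by 0.95 ± 0.20 on the normalised log2 scale (edgeR adjusted p = 0.0414). On total counts its groups overlapped. All 13 mitochondrially encoded subunits lay below 0 (median -1.56), and ND6, a complex I subunit encoded on the opposite strand from the other subunits, was called. ND6 had 1388, 1139 and 585 CPM of total counts in wild type and 53.2, 113 and 68.5 in MYC, and fell by 4.51 ± 0.60 on the normalised log2 scale (edgeR adjusted p = 0.033). Its level was 53.4 to 102 in MYC Setd2 knockout and 215 in Setd2 knockout 3, the library of set 3 without the MYC label. Mitochondrial ribosomal RNA defines the counting sets, and in this comparison set and label cannot be told apart. Of the 17 regulators and electron carriers, 12 lay below 0 (median -0.53) and only Cox7a2l, which the list shares with the members, was called. The coactivators gave -0.52 ± 0.26 for Ppargc1a and -0.74 ± 0.22 for Ppargc1b, the ETS factor Gabpa, whose row overlaps Atp5j on the other strand, -0.68 ± 0.20, the mitochondrial transcription factor Tfam -0.58 ± 0.18 and Atpif1, the inhibitor of ATP synthase, -0.75 ± 0.21 (adjusted p between 0.0507 and 0.173). The related coactivator Pprc1 gave 0.73 ± 0.52, and the transcription factors Tfb1m and Tfb2m gave 0.45 ± 0.30 and 0.63 ± 0.30 (edgeR adjusted p between 0.156 and 0.319). Nrf1 had under 1 CPM of total counts in all libraries of sets 1 and 2 and 16.9 to 31.2 in the 4 libraries of set 3.

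Markers of cell types differed between the same libraries. The 16 proximal tubule markers summed to 42205 to 50180 CPM of total counts in wild type. The range was 18737 to 44280 in Setd2 knockout, 13534 to 46304 with the MYC label alone, and 3961 to 38763 with both labels. They took 27617 to 46304 in set 2 and 3961 to 18737 in set 3. Kap, the largest of these markers in wild type, had 11090 to 17930 CPM there and 13840 in MYC Setd2 knockout 2. It had 1251, 56.0 and 408 in Setd2 knockout 3 and MYC Setd2 knockout 1 and 3, the libraries with over 100 CPM of Xist. Slc34a1 stood at 6501 in MYC Setd2 knockout 1 and 5011 in MYC Setd2 knockout 2. The part of sex in these sums was not tested. In MYC against wild type all 16 lay below 0 and none was called (median -2.0), while 5.62% of all genes were called higher and 2.36% lower. The phosphate transporter Slc34a1 stood at 5814 to 7320 CPM in wild type, 5719 in MYC 1, 819 and 720 in MYC 2 and 3 and 21.1 in MYC Setd2 knockout 3. Macrophage markers (9 of 10 in the table) summed to 31.1 to 47.0 CPM in wild type and 161 to 1842 in MYC, with 7 of 9 called higher by edgeR. Fibroblast and mural markers summed to 79.5 to 99.0 and 270 to 1431, with 3 of 8 called higher, and dividing cell markers to 7.35 to 10.8 and 28.4 to 198, with 6 of 6 called higher. Lymphocyte markers summed to 2.48 to 4.14 in wild type and 8.35 to 104 in MYC, with 4 of 8 called higher. Podocyte markers took 670 to 1236 in wild type and 178 to 292 in MYC, endothelial ones 275 to 626 and 266 to 338, thick ascending limb ones 3544 to 4943 and 6610 to 8990, distal tubule ones 776 to 938 and 416 to 1460, and collecting duct ones 351 to 413 and 945 to 1123, with 1 of 9 called higher. Muscle markers summed to at most 1.76 CPM and brown fat markers to at most 6.54. The part of cell composition in the members' values was not tested.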

How the data were processed

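RNA was extracted with Trizol and DNase treated, and poly(A) RNA was made into directional libraries and sequenced as paired reads of 150 bases, per the labels' protocols. The authors deposited a table of raw read counts per gene in the 12 libraries. Per the submitters' processing notes, the tools included HISAT2 and StringTie, with Trimmomatic 0.35 and cutadapt 1.9.1, and the builds GRCm38 and mm10, with no role or order stated. The counting program, its strand setting, its annotation and how it treated reads with several matches are not stated there, and the counting sets may reflect them, which was not tested.

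Counts were tested with edgeR 4.0.16 (R 4.3.3): genes kept by filterByExpr, TMM scaling, and 1 quasi-likelihood fit of all 12 libraries with a coefficient per group, with Benjamini-Hochberg adjustment over 17019 genes in each of 5 comparisons. A gene was called at an adjusted p under 0.05. The method was tested on simulated data. Alternatives were size factors by relative log expression, total counts, no filter, DESeq2 1.42.0, a replicate block, a term for the counting sets, no set 3 libraries, and leaving out each library. Libraries are separate mice, per the series design. Same-numbered libraries were taken as paired where the correlation of their deviations was over 0.1 for every number. This held only in MYC Setd2 knockout against Setd2 knockout (correlations of 0.37, 0.55 and 0.60), where the block called 0 members, as did the fit without it. In both of these groups only the third library was of set 3. The correlations therefore cannot tell pairing from a shared counting set. In MYC against wild type the correlations were 0.07, -0.07 and 0.12, in Setd2 knockout against wild type 0.20, 0.02 and 0.12. For the pair of groups with the MYC label they were 0.55, -0.60 and 0.68.

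The members and gene lists were chosen with earlier results of these data known. Any member could be named, and values per library were given for called members, core subunits and isoform pairs, and for the 2 members per complex and comparison with the largest change. Near-identical copies were sought among GENCODE vM21 transcripts. The values of 1 member are not reported here on their own, though it is counted in the totals.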

Additional observations from a re-analysis of the deposited data

How the results depend on the processing

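In Setd2 knockout against wild type, DESeq2 called 1 member where edgeR called 0. In MYC against wild type, where 3 members were called, the count was 8 on total counts, 20 with DESeq2, 14 with the replicate block (2 higher, 12 lower), 1 with the set term (Cox6b2), 11 without set 3 (where MYC is 1 library), and 0 to 30 when 1 library was left out, with 30 only without MYC 1. Without the filter it was 2, with Ndufs6 called lower (edgeR adjusted p = 0.0419), Atp5l now called higher (0.0495), and Ndufb9 (0.0672) and Cox7a2l (0.0533) no longer called. Libraries with the same number in these groups share only that number. The member median there was 0.12 on total counts and -0.16 without set 3, against -0.61, and -0.86 to -0.50 when 1 library was left out. In MYC Setd2 knockout against MYC the median was -0.18 on total counts. In MYC Setd2 knockout against Setd2 knockout the count was 1 with DESeq2, 10 with the set term, 8 without set 3 and 0 to 4 when 1 library was left out, with 4 only without Setd2 knockout 3, and the median was -0.80 with the set term. The interaction median was -0.28 on total counts. The causes of these differences were not tested, beyond the shift of the median of all genes by 0.76 on total counts in MYC against wild type. The replicate block changed the member calls of no other comparison. Over 217 named values of 49 genes, 3074 values under the alternatives included 2984 on the same side of the threshold. A further 23 lost the call, 67 gained it and 0 were called in the opposite direction. Values that were not called could change sign, as the member median did on total counts in MYC against wild type. Ndufs7 had no value without set 3 and no adjusted p with DESeq2. Members under a few CPM, such as Cox8b and Cox4i2, carry wide counting error.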
